A study of Mus musculus with 16 samples.

Results

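The genes described here are the cyclin-dependent kinase (CDK) inhibitors Cdkn1a (p21) and Cdkn1b (p27), the D cyclins Ccnd1, Ccnd2 and Ccnd3, their partner kinases Cdk4 and Cdk6, and Rbl2 (p130), a member of the retinoblastoma family. Every probe that the platform's probe-to-gene table assigns to 1 of these 8 symbols was taken, each probe alone. The 8 genes are among 17865 genes named on the array, and they gave 11 of its 31769 gene probes: 3 for Cdk6, 2 for Ccnd2 and 1 for each of the other genes. All 11 passed the filter on signal, as did 30827 gene probes in all.

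RNA levels were compared on 2-colour arrays. The cells, Ba/F3, are an immortal line of mouse pro-B cells that was kept in interleukin-3. Clonal lines carried FOXO3(A3)-ER or FOXO4(A3)-ER, in which a FOXO factor freed from inhibition by PKB is fused to the hormone-binding domain of the oestrogen receptor. 4-hydroxytamoxifen (4-OHT) activates such fusions. Each of the 16 arrays set RNA of 1 treated culture against a pool of time 0 cells of the same line, and 4 groups had 4 arrays each: FOXO3 cells after 2 h, FOXO3 cells after 8 h, FOXO4 cells after 2 h and FOXO4 cells after 8 h of 4-OHT. All groups were grown with interleukin-3 and G418. How many clones stand behind each line is not known here, so the lines may differ in more than the fusion they carry. Neither cells that lack a fusion nor cultures left untreated for the same times are analysed here, so a change with time in culture or with 4-OHT itself cannot be told apart from one with FOXO. The pool was 1 control sample per line, shared by that line's 2 h and 8 h arrays. Calls against it therefore leave out the spread between time 0 cultures. Differences between the lines at 1 time leave it out too, and the levels of the 2 pools do not cancel in them. The p-values rest on 1 spread per probe, that between cultures within groups, pooled over all 16 arrays. They do not measure the spread of a single group. The series design calls the cultures independent.

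D cyclins bind Cdk4 and Cdk6 in the G1 phase of the cell cycle, and the active kinases phosphorylate the retinoblastoma proteins, which then release E2F transcription factors. p27 and p21 bind cyclin-CDK complexes and restrain CDK2 in particular. p130 gathers with E2F4 and the MuvB proteins on cell cycle genes in resting cells and holds them silent. In lymphoid lines FOXO factors are known for arrest in G1, with Cdkn1b and Rbl2 among the genes they are known to induce and D cyclins among those they are known to lower, while cytokine signalling through PKB keeps them out of the nucleus.

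A FOXO protein binds DNA at a short core, and the promoters of the member genes were searched for GTAAACA and for CAAAACA on both strands (reverse complements TGTTTAC and TGTTTTG). The searched window was the 250 bases before each RefSeq start on GRCm38.p6. RefSeq promoters were matched for 6 of the 8 genes, 8 promoters in all. 3 are shown: that of Cdkn1b, whose probe was higher in both lines at 8 h, that of Rbl2, the other gene of the set commonly named as a FOXO target, and the upstream one of Ccnd3, which held the 1 match. Capitals mark the match, and lower case is all other sequence.
Cdkn1b, chr6:134920151-134920400, + strand: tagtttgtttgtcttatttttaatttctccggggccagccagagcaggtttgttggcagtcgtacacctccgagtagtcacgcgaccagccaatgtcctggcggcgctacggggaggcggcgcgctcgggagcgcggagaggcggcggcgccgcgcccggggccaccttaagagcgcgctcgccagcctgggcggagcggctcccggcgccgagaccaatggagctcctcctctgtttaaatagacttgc
Rbl2, chr8:91069807-91070056, + strand: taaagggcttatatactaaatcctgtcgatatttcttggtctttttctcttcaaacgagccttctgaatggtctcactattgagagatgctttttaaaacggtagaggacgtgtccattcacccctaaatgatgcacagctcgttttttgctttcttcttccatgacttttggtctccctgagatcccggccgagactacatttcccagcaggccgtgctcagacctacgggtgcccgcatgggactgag
Ccnd3, chr17:47504801-47505050, + strand: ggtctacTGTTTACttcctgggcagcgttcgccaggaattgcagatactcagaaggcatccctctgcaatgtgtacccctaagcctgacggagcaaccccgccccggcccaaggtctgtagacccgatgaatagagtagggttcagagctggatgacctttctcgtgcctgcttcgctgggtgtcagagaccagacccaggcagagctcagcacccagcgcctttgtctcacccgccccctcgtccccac
The match in Ccnd3 is TGTTTAC and begins 243 bases before the start. GTAAACA or its reverse complement occurred in 3.17% of 32851 promoters of this length and CAAAACA or its reverse complement in 5.56%. 1 of the 8 member promoters held either word. A match is a description of the letters, and the other windows only lack these letters.

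The median spot signal of an array lay between 92.2 and 159.3 in Cy5 and between 96.6 and 158.3 in Cy3, over median backgrounds of 38 to 45. A control line was drawn on each array, per channel, at the 95th percentile of those external control spots whose type gave no clear signal. It was passed by 30.4% to 42.4% of gene probes, and a spot below it is called dim here. Precision is limited by the number of arrays: over all probes the standard error had a median of 0.050 for the log2 ratio of a group and of 0.070 for differences between groups. Each marker gene was read from its brightest probe. Of 14 markers of pro-B and Ba/F3 cells with a probe, Csf2rb2, Ptprc and Cd79b were above the control line in the time 0 pool on 16 of 16 arrays. The brightest of the 3 Ptprc probes had log2 ratios of 0.219 to 1.248 over the 4 groups. In the pool 11 markers were dim on all arrays, among them Cd79a, Vpreb1, Rag1 and Pax5. The mast cell protease gene Cpa3 was also above the control line in the pool on 16 of 16 arrays, with log2 ratios of -0.08 to -0.003. The summed signal of the 7 mast cell and basophil probes was 17600 to 33300 in treated cells and 18200 to 36800 in the pools, and 1 of these probes was called, higher in FOXO3 cells at 8 h. Markers of other blood cells moved in part: the erythroid factor Klf1 had log2 ratios of -1.03 to -0.77 over the 4 groups, and the haemoglobin gene Hba-a1 reached 1.755. The summed signal of these 2 erythroid probes was 822 to 1330 in FOXO3 cells at 8 h against 495 to 525 in their pool, and 527 to 646 in FOXO4 cells at 8 h against 597 to 687. Their part in the results below was not tested.

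Each value below is a log2 ratio, treated culture over the time 0 pool of its line. The value of a single array has the probe's fitted dye term removed. A group's value is the mean of 4 arrays with its standard error from a limma fit over all 30827 probes, and p-values were adjusted in it by the Benjamini-Hochberg method. A probe is said to have risen or fallen where its adjusted p was under 0.05. Since whole cultures were measured, a change in the RNA of each cell and a change in the share of cells in a phase of the cycle cannot be told apart.

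**Figure D1:**
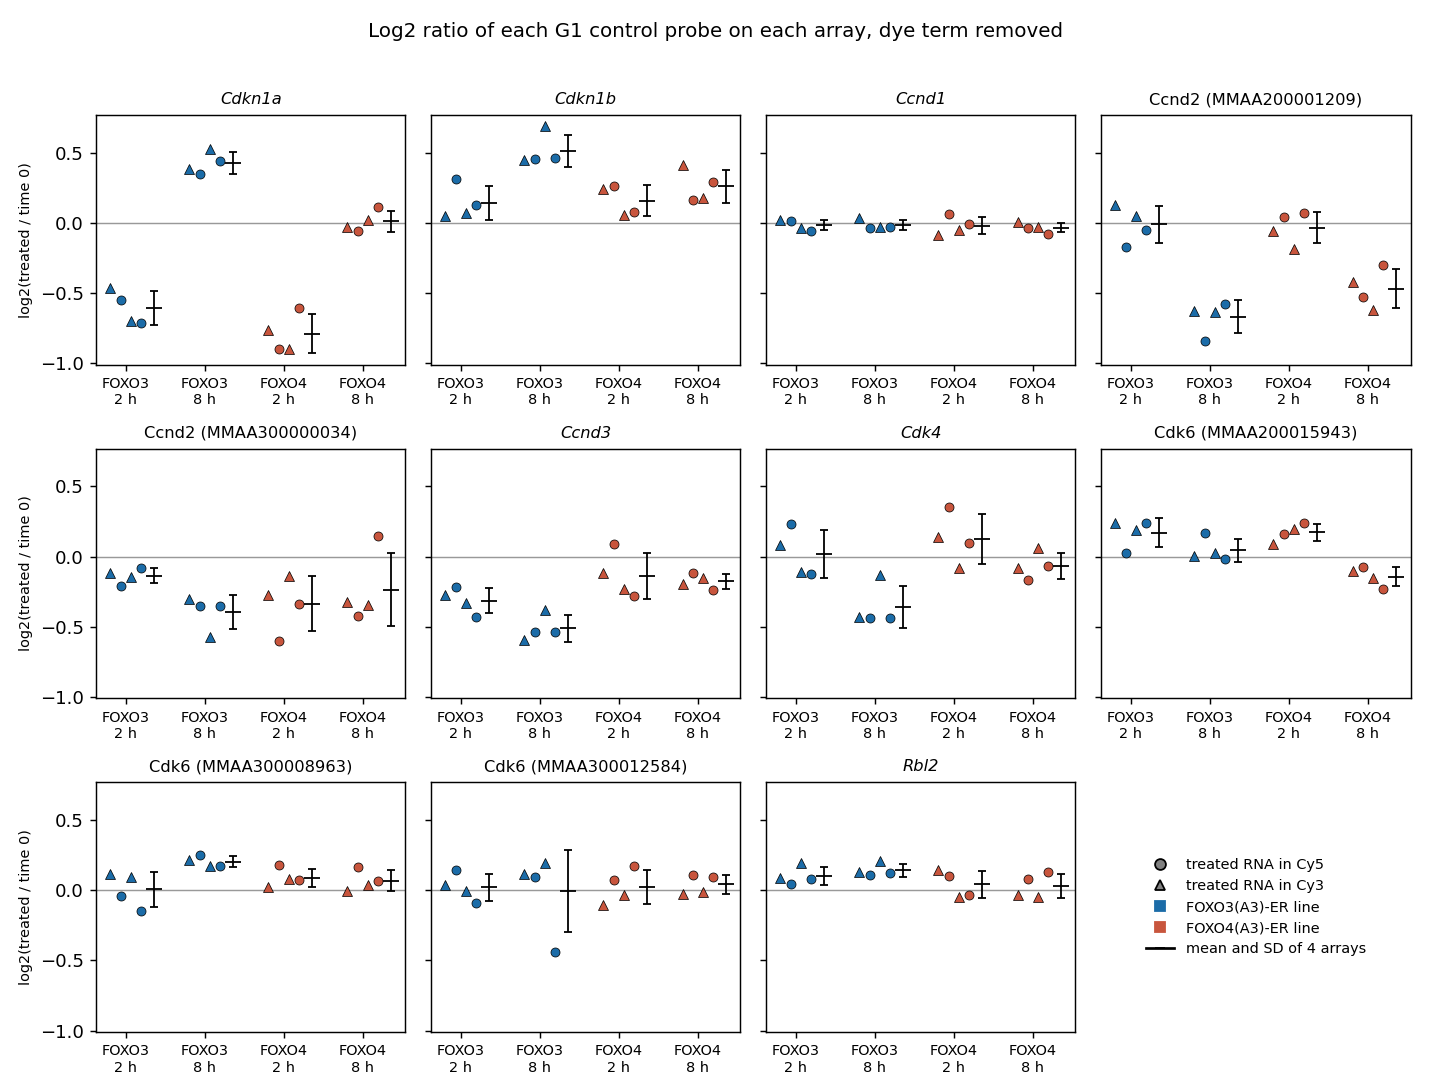
Log2 ratio of treated over time 0 (y axis, dye term removed) on each of the 16 arrays for each of the 11 probes, by line and time (x axis). Circles are arrays with the treated RNA in Cy5 and triangles in Cy3, and the bar beside each group is the mean and SD of 4 arrays. Cdkn1a lay below 0 on all 8 arrays at 2 h, and the main Ccnd2 probe lay below 0 on all 8 arrays at 8 h.

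After 2 h of 4-OHT few of these genes had moved. In FOXO3 cells 3 of the 11 probes were called, against 5.53% of all probes tested (2.8% higher and 2.74% lower): 1 of Cdk6 rose, and Cdkn1a and Ccnd3 fell. In FOXO4 cells 3 were called as well, against 6.01% of all probes (2.56% higher and 3.45% lower): the same Cdk6 probe rose, and Cdkn1a and 1 of the 2 Ccnd2 probes fell. The median over the 11 probes was 0.01 in FOXO3 cells and 0.02 in FOXO4 cells.

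At 8 h the set was more widely changed in FOXO3 cells. There 8 of 11 probes were called, against 25.4% of all probes (13.7% higher and 11.7% lower): Cdkn1a, Cdkn1b, Rbl2 and 1 Cdk6 probe rose, and both Ccnd2 probes, Ccnd3 and Cdk4 fell. In FOXO4 cells 4 were called, against 14.4% of all probes (8.35% higher and 6.01% lower): Cdkn1b rose, and 1 Ccnd2 probe, Ccnd3 and 1 Cdk6 probe fell. The median of the 11 probes stayed near 0, at -0.01 in FOXO3 cells and -0.03 in FOXO4 cells. In FOXO3 cells 4 probes rose and 4 fell, and in FOXO4 cells 7 of the 11 were not called. A call in 1 line and not in the other does not show that the lines differ, and that difference was tested on its own.

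Of the inhibitors, Cdkn1a fell at 2 h in both lines and rose against time 0 at 8 h in FOXO3 cells only. p21, its product, binds both cyclin-CDK complexes and the replication clamp PCNA, and it is best known as a target of p53. In FOXO3 cells at 2 h the 4 arrays gave -0.46, -0.55, -0.70 and -0.71. In FOXO4 cells at 2 h they gave -0.76, -0.90, -0.90 and -0.60. All 8 values lay below 0 and the lines overlapped. The fitted ratio was -0.60 ± 0.053 (1.52-fold lower, adjusted p = 6.45e-07) in FOXO3 cells and -0.79 ± 0.053 (1.73-fold lower, adjusted p = 1.83e-08) in FOXO4 cells. Among all 30827 probes Cdkn1a stood 34th from the lowest ratio in FOXO3 cells and 22nd in FOXO4 cells at that time. The treated spot in FOXO4 cells at 2 h was above the control line on 2 of 4 arrays.

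By 8 h Cdkn1a was above its time 0 level in FOXO3 cells, with arrays at 0.38, 0.35, 0.53 and 0.44. FOXO4 cells lay at -0.03, -0.06, 0.02 and 0.12, on both sides of 0. The 8 h and 2 h arrays did not overlap in either line, and at 8 h the 2 lines did not overlap. The ratio at 8 h was 0.43 ± 0.053 (1.34-fold higher, adjusted p = 3.84e-06) in FOXO3 cells. In FOXO4 cells it was 0.01 ± 0.053 with an adjusted p of 0.962 and a 95% interval of -0.10 to 0.13. All these Cdkn1a calls held under every alternative run.

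Between 2 h and 8 h the Cdkn1a ratio went up by 1.03 ± 0.075 in FOXO3 cells (2.04-fold, adjusted p = 1.55e-08) and by 0.80 ± 0.075 in FOXO4 cells (1.74-fold, adjusted p = 1.27e-06). Both comparisons rest on the same pool within a line, so the pool's own level cancels in them. The rise was not shown to differ between lines: the interaction was 0.23 with a 95% interval of 0.003 to 0.45 and an adjusted p of 0.459. At 8 h itself FOXO3 cells stood 0.41 ± 0.075 above FOXO4 cells (adjusted p = 0.00138). At 2 h that difference was 0.19 ± 0.075 (adjusted p = 0.927).

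Cdkn1b encodes p27, the inhibitor most often linked to FOXO in blood cells. Its probe was dim in the time 0 pool on all 8 arrays of each line, and after 4-OHT it was above the control line on 2 of 4 arrays of FOXO3 cells at 8 h only. It was above its local background on 16 of 16 arrays in both channels. In FOXO3 cells at 2 h the arrays gave 0.05, 0.32, 0.07 and 0.13, and at 8 h 0.45, 0.45, 0.69 and 0.46. Every 8 h value exceeded every 2 h value. In FOXO4 cells the arrays gave 0.24, 0.27, 0.06 and 0.08 at 2 h and 0.42, 0.16, 0.18 and 0.29 at 8 h, and the times overlapped.

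The Cdkn1b ratio at 8 h was 0.51 ± 0.056 in FOXO3 cells (adjusted p = 7.78e-07). In FOXO4 cells it was 0.26 ± 0.056 (1.20-fold higher, adjusted p = 0.00291). The FOXO4 call was lost when arrays were centred on the external control spots (0.15, adjusted p = 0.189) and without the dye term (adjusted p = 0.0757). At 2 h the ratios of 0.14 and 0.16 were not called (adjusted p = 0.228 and 0.123; the FOXO4 ratio was called with the deposited values, at 0.19 and adjusted p = 0.0335), although all 8 arrays lay above 0 once the dye term was removed. Before that step 2 of 4 arrays of FOXO3 cells and 3 of 4 of FOXO4 cells did. From 2 h to 8 h the ratio went up by 0.37 ± 0.080 in FOXO3 cells (adjusted p = 0.00216, lost without the dye term at 0.0588). In FOXO4 cells the step was 0.10 ± 0.080 with a 95% interval of -0.07 to 0.27 (adjusted p = 0.71).

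FOXO3 cells exceeded FOXO4 cells in Cdkn1b at 8 h by 0.25 ± 0.080, with no overlap between their arrays, but the adjusted p was 0.0638. Only 6 of 23 alternatives called this difference. Over all 23 it ran from 0.19 to 0.43, with an adjusted p of up to 0.535. The adjusted p was under the threshold with the authors' deposited log2 values (0.27, adjusted p = 0.029), with median centring (0.36, adjusted p = 0.00666), with centring on the control spots (0.43, adjusted p = 0.0181) and without background correction (0.28, adjusted p = 0.0462). It was also under it without the FOXO4 culture 1 array at 8 h (0.31, adjusted p = 0.031) or the FOXO3 culture 2 array at 2 h (adjusted p = 0.0419). That last array differed between sources: its Cdkn1b log2 ratio was 0.32 here and -0.12 in the authors' deposited values. The interaction of line and time was 0.27 here (adjusted p = 0.346) and 0.42 with the deposited values (adjusted p = 0.0391), where 1 of 23 alternatives called it.

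**Figure D2:**
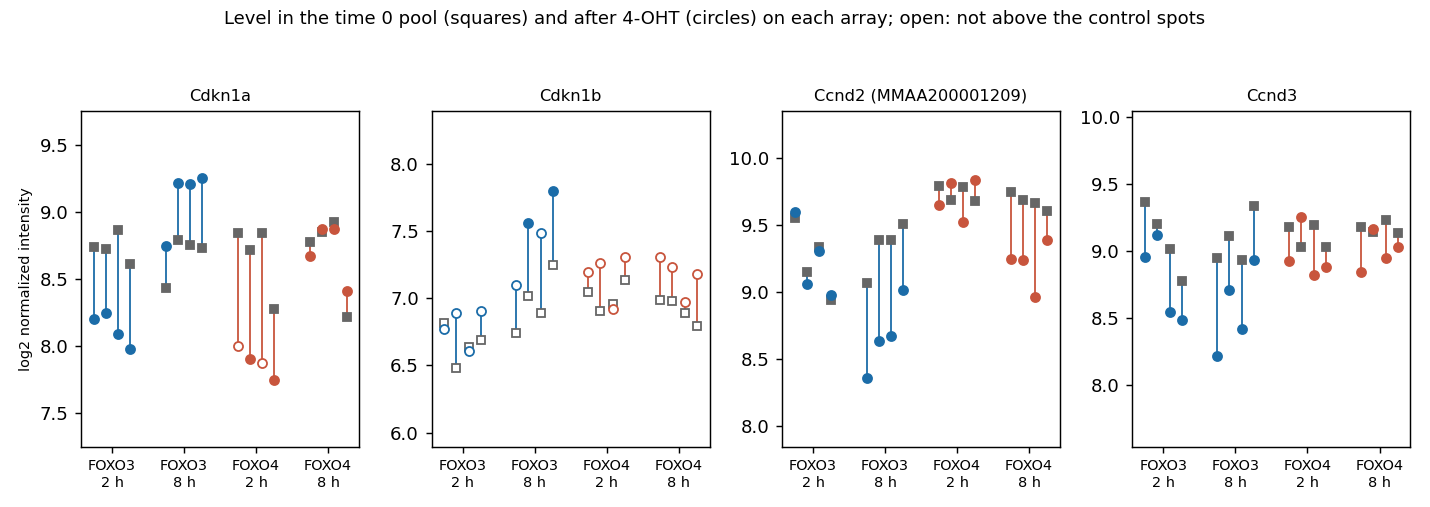
Normalized log2 intensity (y axis) of Cdkn1a, Cdkn1b, Ccnd2 (MMAA200001209) and Ccnd3 in the time 0 pool (squares) and after 4-OHT (circles), joined for each of the 16 arrays, by line and time (x axis). Open symbols were not above the control line. The y axes span the same number of log2 units but start at different levels, and Cdkn1b is open in the pool on every array.

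Of the D cyclins, Ccnd2 was measured by 2 probes that did not give the same picture in FOXO4 cells. The probe MMAA200001209 was above the control line on all arrays. In FOXO3 cells it gave 0.13, -0.17, 0.05 and -0.05 at 2 h and -0.62, -0.84, -0.64 and -0.58 at 8 h. In FOXO4 cells it gave -0.06, 0.04, -0.18 and 0.07 at 2 h and -0.42, -0.53, -0.62 and -0.30 at 8 h. In both lines the 2 h values lay around 0, every 8 h value lay below them, and the lines overlapped at each time.

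This probe fell in both lines at 8 h. Its ratio was -0.67 ± 0.059 in FOXO3 cells (adjusted p = 4.82e-08) and -0.47 ± 0.059 in FOXO4 cells (1.38-fold lower, adjusted p = 1.38e-05), and among all probes it stood 285th and 170th from the lowest. From 2 h to 8 h it fell by 0.66 in FOXO3 cells (standard error 0.084, adjusted p = 1.14e-05) and by 0.44 in FOXO4 cells (standard error 0.084, adjusted p = 0.00234). The latter call was lost with median centring (-0.37, adjusted p = 0.0564) and without the dye term (adjusted p = 0.064). The lines were not shown to differ: at 8 h FOXO3 minus FOXO4 was -0.20 with a 95% interval of -0.38 to -0.02 (adjusted p = 0.21).

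The other Ccnd2 probe, MMAA300000034, was dim in the pool on 7 of 8 FOXO3 arrays and 4 of 8 FOXO4 arrays. After 4-OHT it was above the control line on 1 of 4 arrays of FOXO4 cells at 2 h and on none in the other groups. It gave -0.12, -0.21, -0.14 and -0.08 in FOXO3 cells at 2 h and -0.30, -0.35, -0.57 and -0.35 at 8 h, without overlap. It fell at 8 h in these cells, by 0.39 (standard error 0.079, adjusted p = 0.000723). In FOXO4 cells it gave -0.27, -0.60, -0.14 and -0.34 at 2 h, and -0.32, -0.43, -0.34 and 0.15 at 8 h. Here the 2 h ratio was the one called, at -0.34 ± 0.079 (adjusted p = 0.014), and the 8 h ratio of -0.24 was not (adjusted p = 0.0559).

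The FOXO4 values of this second probe rested on single arrays. Without the culture 4 array at 8 h, the only one above 0, the 8 h ratio was -0.38 (adjusted p = 0.0009). It was also called, at -0.24, without the 2 h array of culture 2 (adjusted p = 0.0296) or culture 3 (adjusted p = 0.0463). The 2 h call was lost without culture 2 (-0.24, adjusted p = 0.151) or culture 4 (-0.34, adjusted p = 0.0502), without the dye term (adjusted p = 0.0862) and in a fit of the line alone (adjusted p = 0.0515). The 8 h ratio passed with median centring (-0.33, adjusted p = 0.00115), with centring on the control spots (-0.44, adjusted p = 0.000706), without background correction (-0.25, adjusted p = 0.0469), with the deposited values (-0.26, adjusted p = 0.0162) and when dim probes were filtered out (adjusted p = 0.0234). In all, 9 of 25 alternatives called it.

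Ccnd3 was the D cyclin whose ratio differed between the lines at 8 h. FOXO3 cells gave -0.28, -0.22, -0.33 and -0.43 at 2 h and -0.60, -0.54, -0.38 and -0.54 at 8 h, all below 0 with a small overlap between the times. FOXO4 cells gave -0.12, 0.09, -0.23 and -0.28 at 2 h and -0.20, -0.12, -0.15 and -0.24 at 8 h. At 8 h every FOXO3 array lay below every FOXO4 array, and at 2 h the lines overlapped.

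The Ccnd3 ratio in FOXO3 cells was -0.31 ± 0.054 at 2 h (1.24-fold lower, adjusted p = 0.000962, lost without the dye term at 0.16) and -0.51 ± 0.054 at 8 h (1.43-fold lower, adjusted p = 4.25e-07). Its step from 2 h to 8 h, -0.20, was not called (adjusted p = 0.0934), but was called without the FOXO3 culture 3 array at 8 h (-0.25, adjusted p = 0.0428) or the FOXO4 culture 2 array at 2 h (adjusted p = 0.0323). In FOXO4 cells the 2 h ratio of -0.14 was not called (adjusted p = 0.184). It was called without culture 2 (-0.22, adjusted p = 0.0201) and when arrays were centred on the control spots (-0.23, adjusted p = 0.0418). The 8 h ratio of -0.18 ± 0.054 was called (adjusted p = 0.0327).

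That FOXO4 call at 8 h did not hold without any 1 of its 4 arrays. The adjusted p was 0.128 without culture 1, 0.0569 without culture 2, 0.0859 without culture 3 and 0.173 without culture 4. It was lost as well with median centring (-0.13, adjusted p = 0.28), without the dye term (adjusted p = 0.542) and in a fit of the line alone (adjusted p = 0.0512). FOXO3 cells lay below FOXO4 cells at 8 h by -0.33 ± 0.076 (95% interval -0.50 to -0.17, adjusted p = 0.00803). This call was lost with centring on the control spots (-0.31, adjusted p = 0.0665) and without the dye term (adjusted p = 0.369).

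Ccnd1 was called in no comparison. Its probe was dim in both channels on all 16 arrays, and the group ratios were -0.015, -0.0149, -0.0178 and -0.0326 for FOXO3 at 2 h and 8 h and FOXO4 at 2 h and 8 h. No single array left the range of -0.08 to 0.07. At 8 h the 95% interval was -0.09 to 0.06 in FOXO3 cells and -0.105 to 0.04 in FOXO4 cells, for a spot whose signal lay among the external controls.

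Of the partner kinases, Cdk4 had a bright probe, above the control line on all 16 arrays. In FOXO3 cells it gave 0.09, 0.23, -0.11 and -0.13 at 2 h and -0.43, -0.44, -0.13 and -0.43 at 8 h. Every 8 h value lay below every 2 h value, with culture 3 closest to them. In FOXO4 cells the values were 0.14, 0.35, -0.08 and 0.10 at 2 h and -0.08, -0.17, 0.06 and -0.07 at 8 h, which overlapped.

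Cdk4 fell by 0.36 in FOXO3 cells at 8 h (standard error 0.070, adjusted p = 0.000527), and by 0.38 from 2 h to 8 h (standard error 0.099, adjusted p = 0.00979). Both calls held under every alternative run. In FOXO4 cells the 8 h ratio was -0.06 with a 95% interval of -0.21 to 0.08 (adjusted p = 0.762). The difference between lines at 8 h, -0.29 ± 0.099, was not called (adjusted p = 0.0847). It was called in 3 of 24 alternatives: without the FOXO3 culture 3 array at 8 h (-0.38, adjusted p = 0.0251), without the FOXO4 culture 2 array at 2 h (adjusted p = 0.0491) and when dim probes were filtered out (adjusted p = 0.0385).

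Cdk6, the other kinase that pairs with D cyclins, had 3 probes, and no comparison called more than 1 of them. MMAA200015943 gave 0.24, 0.02, 0.19 and 0.24 in FOXO3 cells at 2 h and 0.01, 0.17, 0.03 and -0.02 at 8 h. FOXO4 cells gave 0.09, 0.16, 0.20 and 0.24 at 2 h and -0.11, -0.08, -0.15 and -0.23 at 8 h. The FOXO4 times did not overlap, and the 2 lines did not overlap at 8 h, where their difference of 0.19 was not called (adjusted p = 0.084, and 0.0498 without the FOXO3 culture 2 array at 2 h). It rose at 2 h by 0.17 ± 0.044 in FOXO3 cells (adjusted p = 0.0259) and by 0.17 ± 0.044 in FOXO4 cells (adjusted p = 0.0251), and was 0.14 below the pool in FOXO4 cells at 8 h (log2 ratio -0.14, adjusted p = 0.0373).

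These calls on MMAA200015943 were small and depended on single arrays. At 2 h in FOXO3 cells the adjusted p was 0.16, 0.105 and 0.178 without culture 1, 3 or 4, and in FOXO4 cells it was 0.0808, 0.0959 and 0.128 without culture 2, 3 or 4. At 8 h in FOXO4 cells it was 0.0783, 0.138 and 0.253 without culture 1, 3 or 4. All 3 were also lost with either other centring and without the dye term (adjusted p of 0.121 to 0.586). The fall from 2 h to 8 h in FOXO4 cells, -0.31 ± 0.063, had an adjusted p of 0.00299 and was lost with median centring (0.0744), with centring on the control spots (0.239) and without the dye term (0.169).

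MMAA300008963 was dim in both channels on all arrays and carried a dye term of 0.996, larger than any ratio it gave. With that term removed it gave 0.21, 0.25, 0.17 and 0.17 in FOXO3 cells at 8 h, and it was called there at 0.20 ± 0.045 (adjusted p = 0.00187). Before removal, 2 of 4 arrays lay above 0, and without the dye term the adjusted p was 0.9999. Centring on the control spots also ended the call (0.13, adjusted p = 0.29). Its step from 2 h to 8 h in FOXO3 cells, 0.19 (adjusted p = 0.0414), was lost without 9 of the 16 arrays in turn, which were FOXO3 cultures 2 and 4 at 2 h, all 4 FOXO3 arrays at 8 h, FOXO4 culture 3 at 2 h and FOXO4 cultures 3 and 4 at 8 h (adjusted p of 0.0501 to 0.177). It was lost under other scalings too (0.09 with centring on the control spots, adjusted p = 0.74).

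The third Cdk6 probe, MMAA300012584, was called nowhere. Its group ratios were 0.02 and -0.01 in FOXO3 cells at 2 h and 8 h, and 0.02 and 0.04 in FOXO4 cells. In FOXO3 cells at 8 h culture 4 stood apart at -0.44, with the other arrays at 0.12, 0.10 and 0.20. Without that array its 8 h ratio was 0.15 (adjusted p = 0.0502). With all arrays kept, the 3 Cdk6 probes lay on both sides of 0 at 8 h in each line.

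Rbl2 encodes p130. Its probe gave 0.08, 0.04, 0.19 and 0.08 in FOXO3 cells at 2 h and 0.13, 0.11, 0.21 and 0.12 at 8 h, above 0 on all 8 arrays. FOXO4 cells gave 0.14, 0.10, -0.05 and -0.04 at 2 h and -0.03, 0.08, -0.05 and 0.13 at 8 h, on both sides of 0. It rose by 0.14 ± 0.043 in FOXO3 cells at 8 h (1.10-fold, adjusted p = 0.0196). This was the smallest of the 8 member changes called in FOXO3 cells at 8 h. It was lost without culture 1 (0.15, adjusted p = 0.0525), without culture 3 (0.12, adjusted p = 0.119), with median centring (0.12, adjusted p = 0.0792), with centring on the control spots (0.09, adjusted p = 0.56) and without the dye term (adjusted p = 0.0776). In FOXO4 cells at 8 h the ratio was 0.03 with a 95% interval of -0.06 to 0.12 (adjusted p = 0.839).

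The differences between times and lines each gave fewer calls than the 8 of the 8 h ratio in FOXO3 cells. From 2 h to 8 h 5 of 11 probes were called in FOXO3 cells, against 17.2% of all probes (9.77% higher and 7.45% lower): Cdkn1a, Cdkn1b and 1 Cdk6 probe higher, and 1 Ccnd2 probe and Cdk4 lower. In FOXO4 cells 3 were called, against 7.68% of all probes (5.02% higher and 2.66% lower): Cdkn1a higher, and 1 Ccnd2 probe and 1 Cdk6 probe lower. Between the lines at 8 h 2 were called, against 8.21% of all probes (4.3% higher and 3.91% lower), Cdkn1a higher and Ccnd3 lower in FOXO3 cells.

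At 2 h the limma fit called 0 of 11 probes between the lines, against 0.0227% of all probes (0.00973% higher and 0.013% lower), and 2 had an unadjusted p under 0.05. The interaction of line and time called 0 of 11, against 2.47% of all probes (1.54% higher and 0.925% lower), and 5 had an unadjusted p under 0.05. With the deposited values it called 1, Cdkn1b.

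**Figure D3:**
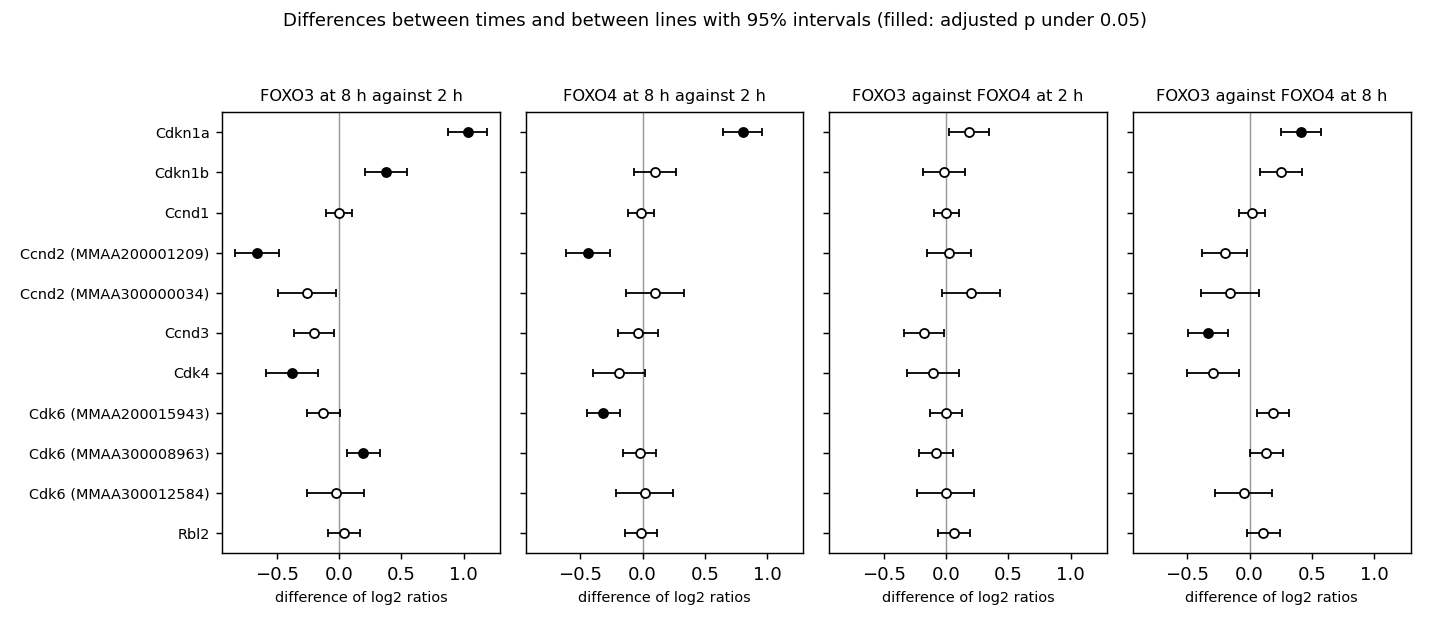
Difference of log2 ratios (x axis) with its 95% interval for each of the 11 probes (y axis), for 8 h against 2 h in each line and for FOXO3 against FOXO4 at each time. Filled points had an adjusted p under 0.05. Cdkn1a is filled in 3 of the 4 panels, and no probe is filled for FOXO3 against FOXO4 at 2 h.

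At time 0 the pools of the lines can be set side by side for each probe, as means of 8 arrays of 1 pool each, with no test. Ccnd2 (MMAA200001209) had a log2 level of 9.29 ± 0.22 (SD) in the FOXO3 pool and 9.70 ± 0.064 in the FOXO4 pool. Cdk4 had 11.86 ± 0.17 and 11.56 ± 0.097. The levels of Cdkn1a, 8.71 ± 0.13 and 8.68 ± 0.28, and of Ccnd3, 9.08 ± 0.21 and 9.14 ± 0.075, lay closer than their spread. The SDs are those of repeated hybridisations of a pool, not of cultures.

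Other genes of G1 control were taken as 6 lists of 54 genes, of which 49 had a tested probe, 75 probes in all. In FOXO3 cells 1 rose and 2 fell at 2 h, and 18 rose and 29 fell at 8 h. In FOXO4 cells 2 rose and 4 fell at 2 h, and 13 rose and 14 fell at 8 h. Of all probes, 5.53% were called in FOXO3 cells and 6.01% in FOXO4 cells at 2 h, and the 2 h counts lay near these shares. At 8 h 25.4% of all probes were called in FOXO3 cells (13.7% higher and 11.7% lower) and 14.4% in FOXO4 cells (8.35% higher and 6.01% lower). The 8 h counts of each list below stand beside these same shares.

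Other CDK inhibitors of the INK4 and related families had 5 probes, and none was called at 2 h. Cdkn2c, which encodes p18 and blocks Cdk4 and Cdk6, rose at 8 h by 0.44 ± 0.054 in FOXO3 cells (adjusted p = 2.99e-06) and by 0.19 ± 0.054 in FOXO4 cells (adjusted p = 0.0197). Its probe was dim on all arrays in both channels. Cdkn2b, which encodes p15, rose by 0.21 ± 0.064 in FOXO3 cells at 8 h (adjusted p = 0.0199). Its spot was above the controls on 0 of 16 arrays in the pool and on 1 of 16 after 4-OHT.

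The retinoblastoma and E2F family had 20 probes, of which 1 rose and 12 fell in FOXO3 cells at 8 h, with a list median of -0.33, while 2 rose and 5 fell in FOXO4 cells, with a median of -0.11. The gene that rose in FOXO3 cells was Rb1, the retinoblastoma protein itself, by 1.12 ± 0.067 (2.17-fold, adjusted p = 2.31e-10). In FOXO4 cells Rb1 rose by 0.60 ± 0.067 (adjusted p = 2.62e-06). The E2F partner Tfdp1 fell in FOXO3 cells on 4 of its 5 probes, by 0.48 to 0.70, and the fifth, dim on all arrays, was at 0.03 (adjusted p = 0.762). E2f8, a repressive E2F, fell by 0.52 in FOXO3 cells (MMAA300012354, adjusted p = 2.51e-07) and by 0.28 in FOXO4 cells (adjusted p = 0.000761), and its other probe fell by 0.44 in FOXO3 cells and was at -0.12 in FOXO4 cells (adjusted p = 0.184). Rbl1, which encodes p107, the near relative of p130, fell in FOXO4 cells by 0.33 at 2 h (adjusted p = 9.37e-05), and at 8 h by 0.36 in FOXO4 cells (adjusted p = 8.67e-06) and 0.37 in FOXO3 cells (adjusted p = 2.08e-06). E2f6, a repressive E2F, fell at both times in both lines. In FOXO3 cells it fell by 0.32 at 2 h (adjusted p = 0.00478) and by 0.51 at 8 h (adjusted p = 6.07e-06), and in FOXO4 cells by 0.46 (adjusted p = 0.00022) and 0.32 (adjusted p = 0.00189).

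Among E cyclins and CDK2 with their activators 1 of 14 probes rose and 9 fell in FOXO3 cells at 8 h, and 1 rose and 5 fell in FOXO4 cells. Ccne1, the cyclin that activates CDK2 at the end of G1, fell in FOXO3 cells by 0.71 and 0.69 on its 2 probes (adjusted p = 4.53e-10 and 2.12e-09) and in FOXO4 cells by 0.15 and 0.21 (adjusted p = 0.0271 and 0.0058). The second of these probes fell in FOXO3 cells at 2 h too, by 0.18 (adjusted p = 0.0384). Ccna2, cyclin A2, fell by 0.47 in FOXO3 cells (adjusted p = 4.35e-08) and was at 0.03 in FOXO4 cells (adjusted p = 0.797). The member that rose was Mnat1, part of the CDK-activating kinase, by 0.52 in FOXO3 cells (MMAA200001423, adjusted p = 1.92e-06) and by 0.25 in FOXO4 cells (adjusted p = 0.00695). Its other probe, dim on all arrays, was at 0.11 in FOXO3 cells (adjusted p = 0.29) and 0.02 in FOXO4 cells. Of the other subunits of that kinase, Ccnh, cyclin H, fell at 8 h by 0.35 in FOXO3 cells (adjusted p = 1.67e-05) and by 0.19 in FOXO4 cells (adjusted p = 0.0133). Cdk7, its catalytic subunit, fell in FOXO4 cells at 2 h by 0.28 (adjusted p = 0.00485) and was called in no other ratio to the pool.

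Other cyclins and kinases had 10 probes, of which 7 rose and 1 fell in FOXO3 cells at 8 h, and 5 rose and 0 fell in FOXO4 cells. Ccni, cyclin I, rose on each of its 3 probes in FOXO3 cells, by 0.27, 0.40 and 0.46 (adjusted p = 0.00253, 4.02e-07 and 1.31e-06). In FOXO4 cells the latter 2 probes rose by 0.19 and 0.23 (adjusted p = 0.00329 and 0.00585), and the first was at 0.08 (adjusted p = 0.543). Ccnc, cyclin C, rose on each of its 3 probes in FOXO3 cells, by up to 0.44 (adjusted p = 2.9e-05), and on 2 of 3 in FOXO4 cells, by up to 0.36 (adjusted p = 0.000645), while its kinase partner Cdk8 fell by 0.35 in FOXO3 cells (adjusted p = 4.1e-05). These are not D cyclins and do not pair with Cdk4 or Cdk6.

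Of 5 probes of DREAM and MuvB subunits, the partners of p130, only Lin37 was called in FOXO3 cells at 8 h, at 0.32 ± 0.059 (adjusted p = 0.000302), and 0 of 5 were called in FOXO4 cells. Ubiquitin ligase subunits, which include those that turn over p27, p21 and D cyclins, had 21 probes, of which 6 rose and 7 fell in FOXO3 cells and 4 rose and 4 fell in FOXO4 cells at 8 h. Ddb1, the adaptor of Cul4 ligases, rose by 0.83 ± 0.050 in FOXO3 cells (adjusted p = 2.46e-10) and by 0.31 in FOXO4 cells (adjusted p = 0.000205). Dtl, the substrate receptor through which that ligase recognises p21, fell by 0.73 ± 0.060 in FOXO3 cells on the probe MMAA300010945 (adjusted p = 1.49e-08) and by 0.23 in FOXO4 cells (adjusted p = 0.0121). Its other probe, dim on all arrays, was at -0.05 in FOXO3 cells (adjusted p = 0.499) and -0.01 in FOXO4 cells. The Cul4a probe MMAA300016869 rose at both times in both lines, by 1.30 in FOXO3 cells at 8 h (adjusted p = 2.3e-09), but the other Cul4a probe was at -0.10 there (adjusted p = 0.105). At 8 h Skp1, the adaptor of SCF ligases, rose by 0.48 in FOXO3 cells (adjusted p = 1.19e-06) and by 0.20 in FOXO4 cells (adjusted p = 0.0176), and the F-box gene Fbxo4 rose by 0.20 in both (adjusted p = 0.000237 and 0.000484). Ubac1, a subunit of the KPC ligase of p27, fell at 8 h on each of its 3 probes in FOXO3 cells, by 0.22 to 0.35, and on 2 of 3 in FOXO4 cells, by 0.17 and 0.22. Its probe MMAA200012928 fell in FOXO4 cells at 2 h too, by 0.25 (adjusted p = 0.00455). Ambra1, a substrate receptor for D cyclins, rose on 1 of 2 probes in FOXO4 cells at 2 h, by 0.17 (adjusted p = 0.0475), and in FOXO3 cells at 8 h, by 0.19 (adjusted p = 0.00597). The other, dim in the pool on 15 of 16 arrays, was called in none of the 4 groups.

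**Figure D4:**
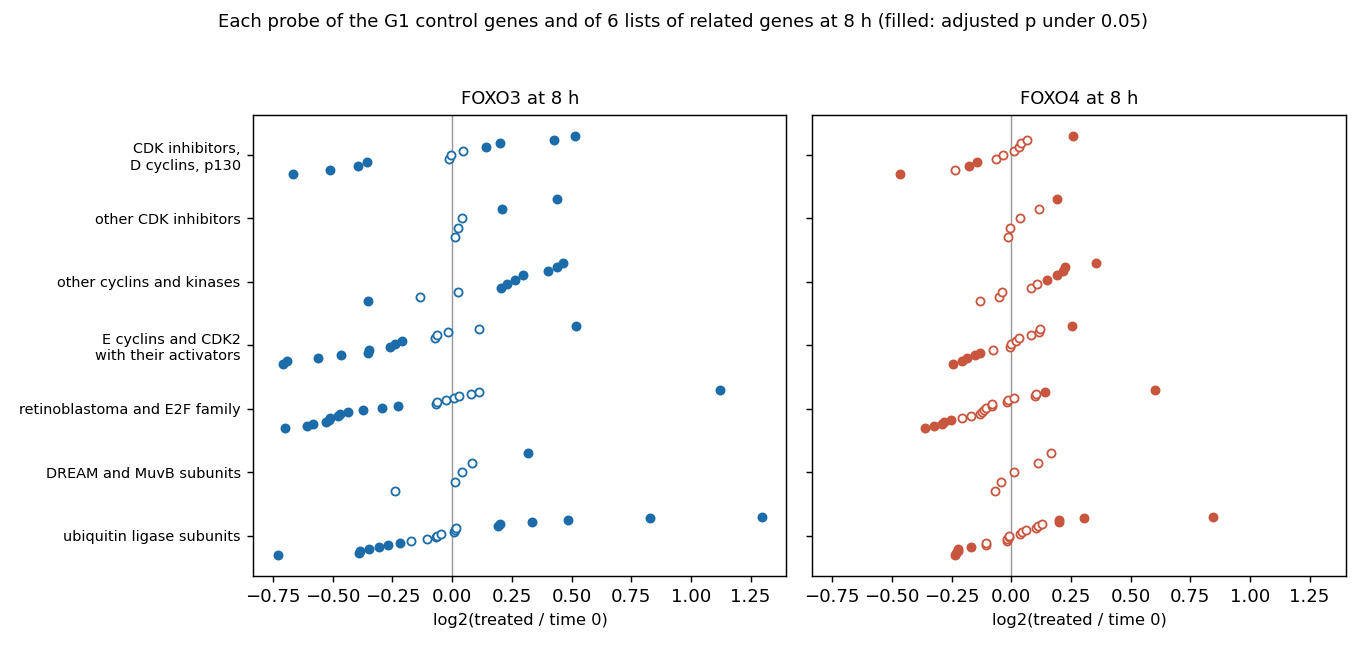
Log2 ratio of treated over time 0 at 8 h (x axis) for the 11 probes of the G1 control genes and for each probe of 6 lists of related genes (y axis), in FOXO3 cells and in FOXO4 cells. Each point is 1 probe, spread vertically by rank, and filled points had an adjusted p under 0.05. The rightmost point among the retinoblastoma and E2F genes is Rb1, at 1.12 in FOXO3 cells and 0.60 in FOXO4 cells.

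The 24634 probes of other named genes were ranked by how closely their 16 array values followed each member, as the root mean square difference of the log2 ratios, where a small value means a close course. Nearest to Cdkn1a was Bbc3, which encodes the cell death protein PUMA, at 0.227. Its mean ratios were -0.41 and 0.48 in FOXO3 cells at 2 h and 8 h and -0.45 and 0.00 in FOXO4 cells. Next came the early activation marker Cd69 (0.231) and Metrnl (0.237). The difference is not scaled for the size of a probe's changes, so its values cannot be compared between members. Nearest to Cdkn1b was Slc49a4 (0.082), and nearest to Ccnd2 (MMAA200001209) was Nmral1 (0.0888). Nearest to Ccnd3 was Trim27 (0.0548), nearest to Cdk4 was Ldha-ps (0.0717) and nearest to Rbl2 was Exoc7 (0.0621). The second Ccnd2 probe had Tmem70 (0.124), and the 2 called Cdk6 probes had Ergic2 (0.0806) and Cdcp3 (0.0499).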

How the data were processed

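The scanner files hold each spot's mean intensity and local background in 2 channels, per the file headers. The authors also deposited normalized intensities and a table of log2 values, which equalled log2(treated / time 0) of those intensities to within 5e-06. How the authors normalized is not given in the labels or headers. Channel 1 was taken as Cy5, which fitted the deposited Cy5 values better on 16 of 16 arrays. In each group cultures 2 and 4 carried the treated RNA in Cy5 and cultures 1 and 3 in Cy3.

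From the scanner intensities, background was corrected with normexp (offset 50), and ratios were normalized by loess within each array with the 3223 control spots at weight 0 (limma 3.58.1, R 4.3.3). Ratios were turned to treated over time 0. Of 31769 gene probes, 942 were left out, since fewer than 4 arrays showed them over local background by 2 SDs in a channel. All 16 arrays entered 1 fit (lmFit, eBayes) with 4 group means and a dye term, for 9 comparisons, with Benjamini-Hochberg adjustment over 30827 probes and a threshold of 0.05. Probe names are those of the platform annotation, which gave 1 symbol for 26000 gene probes and none for 5769, with 1981 symbols updated through RefSeq synonyms. Alternatives were other centring, background, filters, designs, the deposited log2 values and leaving out each array. Centring on the control spots used the 144 spots of the 1 external control type, of 14, that gave a clear signal. The control line left those spots out. No array copied another. On simulated data for FOXO3 at 8 h over 30827 probes the fit recovered 45 of 50 probes changed by 0.3 and called 11 of 30627 unchanged ones. Far fewer probes were changed there than the 25.4% called in the data, so the adjustment differs and these rates need not carry over.

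The member genes, the 6 lists and the tests were chosen with earlier results of these data known. The text names every member probe, up to 4 called probes of smallest adjusted p per list and comparison against the pool, their genes' other probes, and up to 3 nearest probes per called member.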

Additional observations from a re-analysis of the deposited data

Results flagged for a closer look

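In 4 of 44 sets of 4 arrays (11 probes in 4 groups), 1 array stood apart from the other 3 by Dixon's criterion at the 95% level, which chance meets in about 1 of 20 sets. All 4 were in FOXO3 cells at 8 h. Cdkn1b was at 0.688 in culture 3, against 0.450 to 0.462 in the others. Cdk4 was at -0.133 in culture 3, against -0.435 to -0.430. Cdk6 (MMAA300012584) was at -0.439 in culture 4, while its other arrays reached 0.196. Ccnd1 was at 0.035 in culture 1, against -0.038 to -0.027, on a spot that was dim throughout.

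2 members were called between the lines at 8 h in the limma fit. The Cdkn1a ratio was higher in FOXO3 cells than in FOXO4 cells by 0.41, and the Ccnd3 difference was -0.33. Each line has its own pool, so the levels of the pools do not cancel in these differences. They cancel in the interaction of line and time. In the same fit it was not called for Cdkn1a (0.23, adjusted p = 0.459) or for Ccnd3 (-0.16, adjusted p = 0.765).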

How the results depend on the processing

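Of 245 repeats of the called member results under alternatives other than leaving out an array, 205 stayed called and 40 were no longer called. Of 448 repeats with 1 array left out, 422 stayed called and 26 did not. None changed direction, but many of these repeats could not move the ratio. Each group holds both dye orientations equally, so the fits without the dye term, with the block, of the line alone or with other filters keep the ratio. Leaving out an array outside the comparison keeps it too. Such repeats change only the standard error or the adjustment. Without the dye term 1 of 11 probes was called in FOXO3 cells at 2 h, 1 in FOXO4 cells at 2 h, 1 in FOXO4 cells at 8 h, 3 for FOXO3 at 8 h against 2 h, 1 for FOXO4 at 8 h against 2 h and 1 between the lines at 8 h. Filtering dim probes called 3 for FOXO3 at 8 h against 2 h, of the 8 probes left; median centring called 1 for FOXO4 at 8 h against 2 h; the deposited values called 1 in the interaction. With 1 array left out the counts ranged from 2 to 3 in FOXO3 cells at 2 h, 7 to 8 in FOXO3 cells at 8 h, 1 to 3 in FOXO4 cells at 2 h, 2 to 5 in FOXO4 cells at 8 h, 4 to 6 for FOXO3 at 8 h against 2 h and 3 in each case for FOXO4 at 8 h against 2 h, and 2 to 4 between the lines at 8 h. The shares of all probes called with 1 array left out or with dim probes filtered out are not given here. Those member counts are therefore not set against a background. With 4 arrays a group, a group's ratio had a median standard error of 0.050, and probes of dim spots (Cdkn1b, Ccnd1, Ccnd2 MMAA300000034, Cdk6 MMAA300008963) are limited by signal.

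Residuals of same-numbered cultures at 2 h and 8 h had correlations of -0.402 to 0.181 in FOXO3 cells and 0.002 to 0.1 in FOXO4 cells. In each line 1 of 4 numbers was best matched to its own. Unlike numbers reached 0.446 and -0.401 in FOXO3 cells. Whether same-numbered cultures ran in parallel is not given, and 4 arrays a group with the dye term removed cannot settle it. The main fit used no pairing. With the replicate number as a block in place of the dye term, 2, 8, 2 and 4 probes were called against the pool. The block called 5 and 3 for 8 h against 2 h, 0 and 2 between the lines and 0 in the interaction. Apart from the lines at 2 h, the share of all probes called under the block is not given here. These counts are therefore not set against a background. The block ended the 3 calls of Cdk6 MMAA200015943 against the pool (adjusted p = 0.085, 0.078 and 0.0956) and added Ccnd2 MMAA300000034 in FOXO4 cells at 8 h (adjusted p = 0.0289).

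Over all probes, 7815, 1854 and 4429 were called against the pool (FOXO3 at 8 h, FOXO4 at 2 h and 8 h), and 4557, 501 and 1998 without the dye term. In FOXO3 cells at 2 h 5.53% of probes were called, against 1.64% without the dye term and 2.23% with centring on the control spots, and median centring called 1170 in FOXO4 cells at 2 h. For 8 h against 2 h, 5309 (FOXO3) and 2368 (FOXO4) became 2560 and 659 without the dye term and 3240 and 899 with centring on the control spots, and median centring called 1568 for FOXO4. Between the lines at 2 h 7 were called, against 0 with median centring, 1 with control-spot centring, 2 without the dye term and 2 with the block. At 8 h 2530 became 1014 with control-spot centring and 733 without the dye term, and in the interaction 761 became 53 and 99, and 250 with median centring. Control-spot centring moved the median of all probes to -0.12 in FOXO4 cells at 8 h, and the share of calls that were higher moved from 54% to 43.1% in FOXO3 cells at 8 h, from 42.6% to 13% in FOXO4 cells at 2 h, from 58.1% to 34.9% at 8 h and from 65.4% to 78.2% for FOXO4 at 8 h against 2 h. With median centring it was 68.3% in FOXO4 cells at 8 h and 81.1% for 8 h against 2 h. Directions of called members did not change, though many of the alternatives could not move their ratios.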
